A study of Mus musculus with 2 samples.

Results

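The genes described here encode the catalytic core of Polycomb repressive complex 1 (PRC1). They are Bmi1 itself, its PCGF paralogues Pcgf1, Pcgf2, Pcgf3, Pcgf5 and Pcgf6, the RING E3 ligases Ring1 and Rnf2, and the adaptors Rybp and Yaf2. Members were taken by name, and every array probe set annotated to exactly 1 gene was kept where that gene was a member. Of the 10 genes listed, 9 had such a probe set, with 22 probe sets among the 34958 on the array that carry 1 gene symbol. Rybp had none of its own, because both probe sets that carry its symbol are also annotated to the pseudogene Rybp-ps. Of the 22 probe sets, 15 read above a floor of 100 signal units on both arrays, 1 on 1 array, and 6 on neither. The 9 genes therefore all had a ratio, from 16 measured probe sets.

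PRC1 ubiquitylates histone H2A and helps to keep developmental genes silent. Each complex pairs a ligase, Ring1 (RING1A) or Rnf2 (RING1B), with a single PCGF protein through their RING domains, and that PCGF partner stimulates the ligase and largely decides which further subunits join. Bmi1 and Pcgf2 (Mel18) enter canonical complexes with CBX and PHC proteins, Pcgf1 (NSPc1) enters PRC1.1 with KDM2B and BCOR, Pcgf3 and Pcgf5 enter complexes with AUTS2, and Pcgf6 enters PRC1.6 with L3MBTL2 and MGA. Rybp and Yaf2 occupy the site that a CBX protein takes in canonical complexes. A line without Bmi1 thus raises the question of whether transcripts of these relatives are more abundant when Bmi1 is absent.

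RNA was compared between 2 lines of mouse embryonic fibroblasts (MEFs), a Bmi1 wild-type line and a Bmi1 null line. Both are labelled as male and of the C57BL/6 strain, and per the methods they were derived from littermates and immortalised with a TBX2 expression construct, which the wild-type cells carry too. Each genotype was represented by 1 culture and 1 Affymetrix mouse expression array, so there is no replicate, no test and no p-value, and genotype cannot be told apart from line, culture or array. Signals are MAS5 intensities, scaled by the authors to the same trimmed mean on both arrays. Ratios are log2 of null over wild-type signal after setting values below 100 to 100, and they concern bulk RNA, in which fewer cells of a type and less RNA per cell cannot be told apart.

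The labelled cell type was described with marker genes, which were added after their values were seen. Each marker was read at its brightest probe set unless stated. All 10 fibroblast markers were measured, and their signals summed to 110983 on the wild-type array and 129814 on the null array. In null cells Col3a1 and Col1a1 were 4.38-fold and 2.16-fold higher at these probe sets and Thy1 was at least 3.75-fold lower. The other 7 markers differed less than 2-fold there, but not at every probe set. At dimmer probe sets Col1a2 was 2.56-fold higher in null cells (6616 to 16952) and Col3a1 22.7-fold higher (448 to 10159). Fn1 was 2.01-fold lower at a dimmer probe set (741 to 369). Of the other cell types, 1 of 4 epithelial, 2 of 5 blood and macrophage, 2 of 4 endothelial and 5 of 5 neural and glial markers were above the floor on at least 1 array. Their summed signals were 237 and 1015 (epithelial), 1403 and 810 (blood), 413 and 299 (endothelial) and 3141 and 7785 (neural) in wild-type and null cells. The glial markers Gfap (102 and 106) and Sox10 (126 and 169) were near the floor at their brightest probe set and below it at their others. The epithelial marker Epcam was 5.59-fold higher in null cells (149 to 834) at its brightest probe set. Its other probe set stayed under the floor (5.82 and 11.5). The neural markers Map2 and Ncam1 were 8.77-fold and 2.25-fold higher in null cells, whereas the neural marker Tubb3 was 2.70-fold lower. The macrophage marker Cd14 was 2.24-fold lower in null cells (1012 to 453) and the endothelial marker Cdh5 at least 2.08-fold lower. The epithelial markers Cdh1, Krt8 and Krt18 read below the floor on both arrays. So did the blood and macrophage markers Ptprc, Cd68 and Aif1 and the endothelial markers Pecam1 and Tek. The part of these differences in the results below was not tested. The Y-linked gene Eif2s3y was at least 16.8-fold lower in null cells (1683 to 23.3) despite the label male, as were Uty and Kdm5d (bounds of 11.9-fold and 7.12-fold), and Xist was near the floor (153 and 124), so the lines differed in more than Bmi1. Cdkn2a, which Bmi1 is known to repress, was 4.27-fold higher in null cells. Spike-in probe sets differed by 0.890-fold to 1.06-fold.

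Bmi1 signal differed between its 2 probe sets. At 1417493_at it read 9933 on the wild-type array and 2146 on the null array, 4.63-fold lower (log2 ratio −2.21). At 1448733_at it was 931 and 831, 1.12-fold lower (log2 ratio −0.16). The first difference was 10.3 times the spread between probe sets of 1 gene at that signal (SD 0.21 on the log2 scale), and the second was 0.611 times it (SD 0.27). That spread was taken from pairs of probe sets of the same gene and covers probe set error only, not the spread between cultures. Null cells thus kept signal well above the floor at both Bmi1 probe sets. The annotation gives the same GenBank record as the source of both, but not where either lies relative to the altered part of Bmi1.

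Such disagreement within a gene was uncommon among all genes on these arrays. The log2 ratios of the Bmi1 probe sets were 2.05 apart. Among 4591 genes that had 2 or more probe sets clear of the floor on each array, 14 (0.305%) had their 2 brightest probe sets at least that far apart, Bmi1 included, and the median distance was 0.21. The other members with such a pair were far closer together. Rnf2 probe sets were 0.0066 apart, those of Pcgf5 0.033, Pcgf6 0.12, and both Pcgf3 and Yaf2 0.28. Over all measured genes the median distance of the log2 ratio from 0 was 0.30, which leaves most genes little room for a gap like that of Bmi1. Genes as far from 0 as Bmi1 were not compared on their own.

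**Figure D1:**
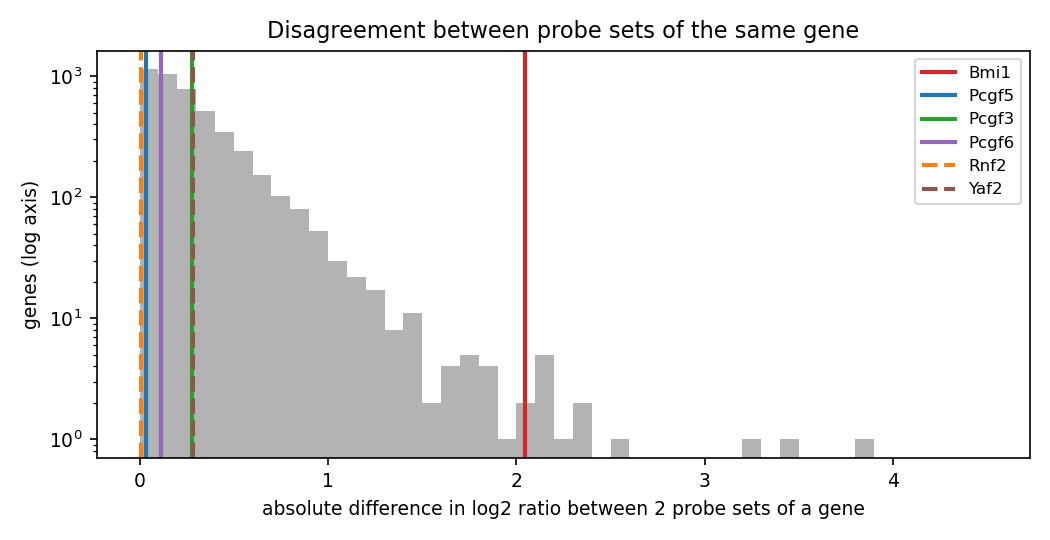
Absolute difference in log2 ratio (x axis) between the 2 brightest probe sets of each of 4591 genes, with the number of genes on a log y axis. Vertical lines mark the 6 members with such a pair, and Bmi1 at 2.05 lies far to the right of the other 5, which are all at or below 0.28.

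The start of transcription of Bmi1 is shown because its transcript is the one that was targeted yet still gave signal, and that of Pcgf2 because it encodes the paralogue that shares the canonical complex. Both windows are the 250 bases before the RefSeq start on GRCm38.p6, written 5′ to 3′ on the strand of the gene, at chr2:18676768-18677017 (plus strand) for Bmi1 and chr11:97699649-97699898 (minus strand) for Pcgf2. Capitals mark the E-box CACGTG, a motif bound by MYC and MAX among other factors, which reads the same on both strands.
Bmi1: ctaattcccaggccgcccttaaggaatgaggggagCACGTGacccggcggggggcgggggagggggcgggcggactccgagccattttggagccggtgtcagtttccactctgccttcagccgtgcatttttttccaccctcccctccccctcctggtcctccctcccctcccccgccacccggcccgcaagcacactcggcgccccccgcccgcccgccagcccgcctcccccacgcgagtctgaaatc
Pcgf2: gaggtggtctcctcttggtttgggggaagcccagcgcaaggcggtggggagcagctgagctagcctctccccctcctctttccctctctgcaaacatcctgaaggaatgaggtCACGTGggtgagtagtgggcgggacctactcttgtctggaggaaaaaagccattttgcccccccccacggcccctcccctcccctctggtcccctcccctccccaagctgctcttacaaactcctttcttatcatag

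Windows were found for 7 members (9 windows, 3 of them of Pcgf5), and not for Pcgf1, Rybp or Yaf2. The E-box was in 2 of the 9 windows and in 6.02% of all 32851 windows of this length. The E2F motifs TTTCCCGC and TTTGGCGC and the cyclic AMP response element TGACGTCA, each searched on both strands, were in 0 of the 9 and in 0.895%, 0.417% and 1.55% of all windows. Member windows were rich in G and C, with a median of 70.4% against 52.4% over all windows. The observed over expected ratio of CpG was 0.715 at Bmi1 and 0.232 at Pcgf2, against a median of 0.374 over all windows, so these windows lie on opposite sides of that median. These matches are a description of letters, not of binding.

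Of the 5 PCGF paralogues, none had signal at least 2-fold higher in null cells, as was the case for 5.73% of all 11766 measured genes. At 1.5-fold the count was also 0, against 12.5% of genes. Pcgf5 came nearest. This paralogue of the AUTS2-containing complexes read 1002 on the wild-type array and 1458 on the null array at 1429564_at, 1.46-fold higher (log2 ratio 0.54, probe set SD 0.27). Its second probe set, 1434666_at, read 550 and 782, 1.42-fold higher (log2 ratio 0.51). Both Pcgf5 probe sets were higher on the null array by about the same factor and lay 2.03 and 1.91 probe set SDs from 0. A ratio at least as far from 0 in either direction was found for 27.0% of measured genes, so a difference of this size was common between these lines. The remaining Pcgf5 probe set, 1453636_at, stayed under the floor (60.4 and 62.8).

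Pcgf2, the closest relative of Bmi1 in the canonical complex, was dim on both arrays. At 1420645_at it read 129 on the wild-type array and 179 on the null array, 1.38-fold higher (log2 ratio 0.47, SD 0.33). At 1456330_at it read 79.0 and 117, at least 1.17-fold higher, since the wild-type value was below the floor. Both Pcgf2 probe sets were higher on the null array, the first by 1.39 and the second, as a bound, by 0.676 probe set SDs. Signals this close to the floor give a less certain ratio than the brighter members do, and 32.6% of measured genes had a ratio at least as far from 0.

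Pcgf1, the PCGF subunit of PRC1.1, went the other way. Its single probe set, 1427956_at, read 284 on the wild-type array and 166 on the null array, 1.71-fold lower (log2 ratio −0.78, SD 0.33). This was the 1 member besides Bmi1 with signal at least 1.5-fold lower in null cells, a difference reached by 12.0% of measured genes. It lay 2.32 probe set SDs from 0, but no second probe set of Pcgf1 was there to compare.

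Pcgf3 and Pcgf6 were nearly level between the lines. Pcgf3, which like Pcgf5 pairs with AUTS2, read 1642 on the wild-type array and 1730 on the null array at 1428423_at, 1.05-fold higher (log2 ratio 0.07). Its 1440203_at read 174 and 151, 1.15-fold lower (log2 ratio −0.20), and 1428424_at stayed under the floor (45.9 and 18.1). Pcgf6, the PCGF subunit of PRC1.6, read 1103 and 1162 at 1424081_at, 1.05-fold higher (log2 ratio 0.08). Its 1454120_a_at read 711 and 692, 1.03-fold lower (log2 ratio −0.040), and 1432108_at was below the floor (43.7 and 38.5). For both genes the brighter probe set lay above 0 and the dimmer below it, and all 4 ratios were within 1 probe set SD of 0.

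**Figure D2:**
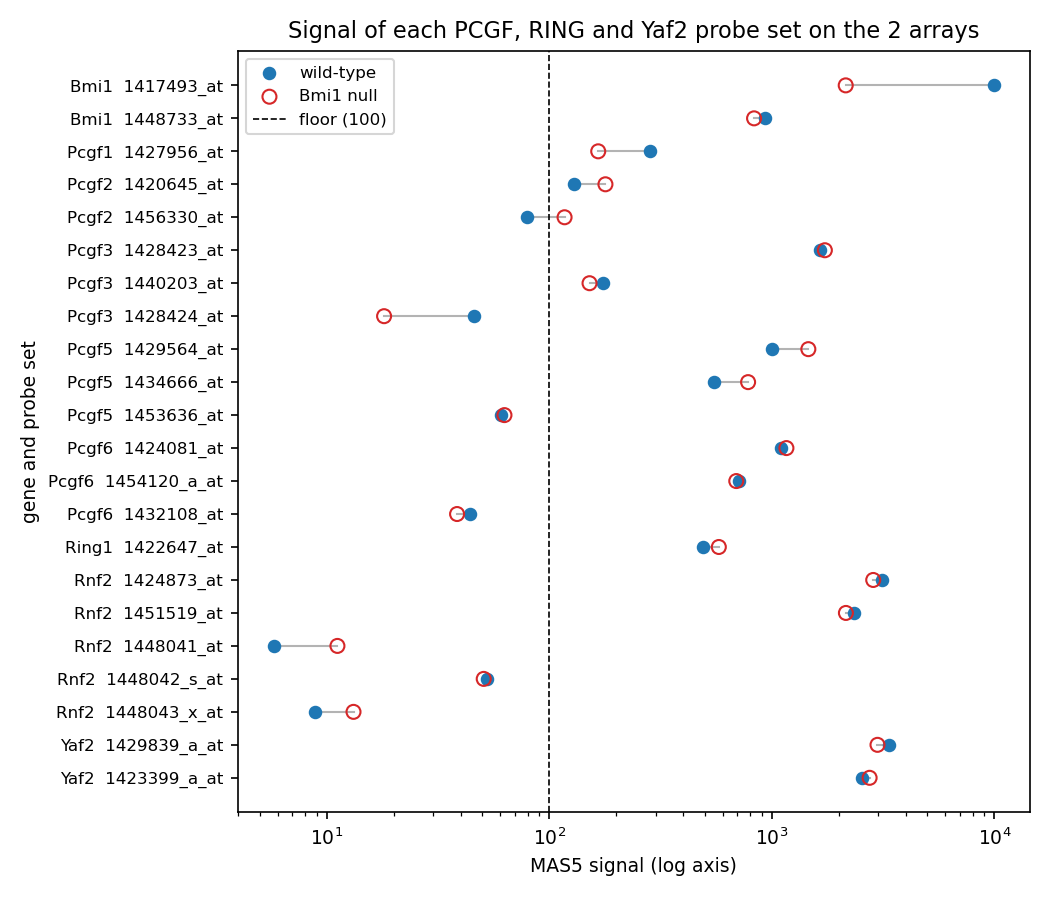
MAS5 signal (x axis, log scale) of each of the 22 member probe sets (rows) on the wild-type array (filled blue) and the Bmi1 null array (open red), joined by a grey line, with the floor of 100 dashed. The widest gap above the floor is at Bmi1 1417493_at (9933 to 2146), whereas the second Bmi1 probe set nearly coincides (931 and 831).

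The ligases that carry the catalytic activity differed little. Rnf2, the main H2A ubiquitin ligase of PRC1, read 3112 on the wild-type array and 2853 on the null array at 1424873_at, 1.09-fold lower (log2 ratio −0.13, SD 0.21). At 1451519_at it read 2335 and 2151, also 1.09-fold lower (log2 ratio −0.12). The other 3 Rnf2 probe sets, 1448041_at, 1448042_s_at and 1448043_x_at, read between 5.77 and 52.2 on both arrays and gave no ratio. Ring1, its paralogue, had 1 probe set, 1422647_at, which read 491 and 577, 1.18-fold higher in null cells (log2 ratio 0.23, SD 0.27). All 3 measured ligase probe sets lay within 1 probe set SD of 0.

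Yaf2, an adaptor at the site that a CBX protein takes in canonical complexes, was measured by a pair of bright probe sets that pointed in opposite directions. At 1429839_a_at it read 3367 on the wild-type array and 2982 on the null array, 1.13-fold lower (log2 ratio −0.17, SD 0.21). At 1423399_a_at it read 2551 and 2749, 1.08-fold higher (log2 ratio 0.11). Both were within 1 probe set SD of 0. The suffix of both names marks probes that match several transcripts of a gene.

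**Figure D3:**
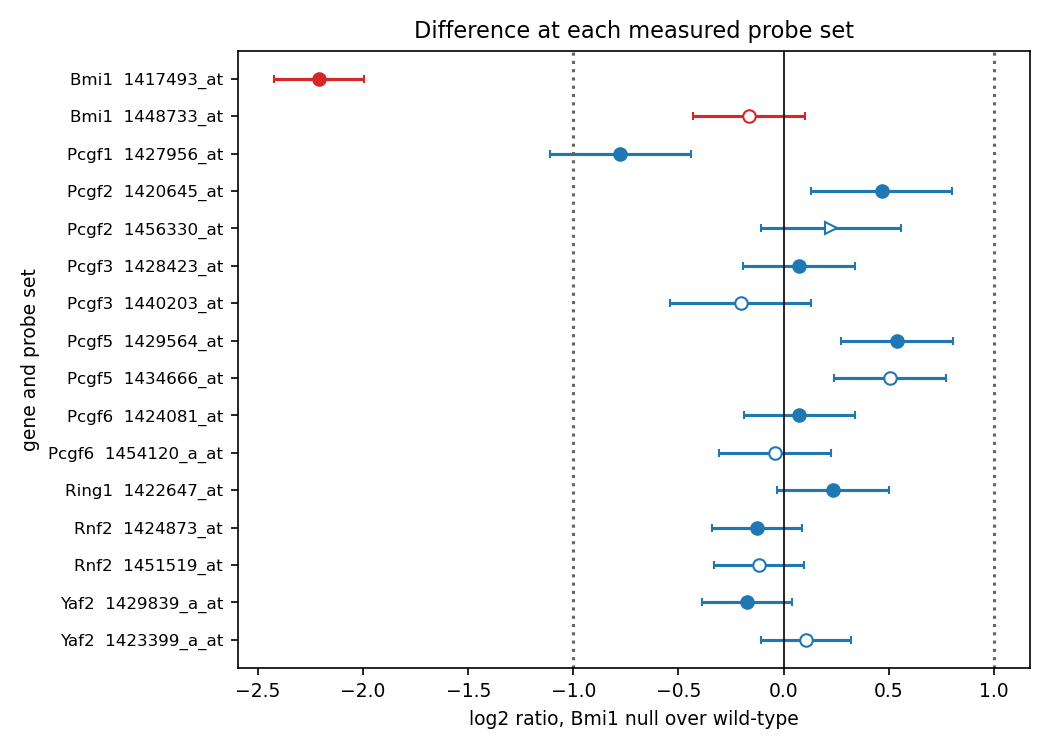
Log2 ratio, Bmi1 null over wild-type (x axis), at each of the 16 measured member probe sets, with bars of 1 SD between probe sets of a gene at that signal. Filled points are the brightest probe set of each gene, the triangle is a lower bound, dotted lines mark 2-fold, and Bmi1 1417493_at at −2.21 is the 1 probe set beyond them.

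Over the 8 members other than Bmi1, the brightest probe set was higher in null cells for 5 genes and lower for 3. Their log2 ratios ran from −0.78 (Pcgf1) to 0.54 (Pcgf5) with a median of 0.08, beside a median of 0.0060 over all measured genes. The median distance from 0 was 0.20 for these 8 genes and 0.30 over all measured genes. Of their 14 measured probe sets, 8 were higher and 6 lower, and 10 lay within 1 probe set SD of 0. None of the 16 measured member probe sets was at least 2-fold higher, against 5.06% of all measured probe sets with 1 gene symbol, and 1 was at least 2-fold lower, against 5.10%. At gene level the 1 member at least 2-fold lower was Bmi1, beside 5.16% of measured genes. With 9 genes, shares of this size amount to less than 1 gene, so the counts of 0 and 1 do not set the members apart from the array as a whole.

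The proteins that join each PCGF were described by lists, each gene by its brightest probe set. In PRC1.1, 0 of 5 measured partners of Pcgf1 differed at least 2-fold (median log2 ratio −0.12). Kdm2b, whose product brings PRC1.1 to CpG-rich DNA, was 1.26-fold higher (1405 to 1765), the log2 ratio of Bcor was −0.14 (459 to 416), and those of the bright genes Skp1 and Usp7 were −0.14 and −0.12. Some of these genes had other probe sets that pointed the other way. Usp7 was at least 2.33-fold higher at a dim probe set (75.6 to 233), and its 5 other measured probe sets ran from −0.32 to 0.33 on the log2 scale, while the second Skp1 probe set had a log2 ratio of 0.11 and a dim Bcor probe set a bound of 0.31.

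For the complexes of Pcgf3 and Pcgf5, 6 of 7 listed partners were measured. Of these, 0 differed at least 2-fold, beside 5.73% higher and 5.16% lower over all measured genes. All 6 had a ratio below 0 (median −0.22), from −0.051 for Dcaf7 (2243 to 2164) to −0.53 for Auts2 (179 to 124). Csnk2a1, a catalytic subunit of casein kinase 2, was 1.13-fold lower (2349 to 2074) at its brightest probe set. Its other measured probe sets were lower too, by 1.01-fold to 1.58-fold. Pcgf5 thus lay above 0 while its measured partners lay below it. Of these partners, Dcaf7, Fbrs, Csnk2a1 and Csnk2a2 were within 1 probe set SD of 0 at their brightest probe sets. The dimmer Auts2 and Fbrsl1 (265 to 184) lay further from 0. Pcgf3, which shares these partners, was nearly level. Of 10 PRC1.6 partners of Pcgf6, 0 differed at least 2-fold (median 0.09). The deacetylases Hdac2 and Hdac1 were 1.21-fold and 1.13-fold higher, and L3mbtl2 was 1.36-fold lower (537 to 395). Mga had a log2 ratio of −0.14 (558 to 505), while a dim Mga probe set went the other way, with a bound of 0.26 (56.4 to 120).

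In the canonical complex, 8 of 10 listed CBX, PHC and SCM genes were measured. A difference of 2-fold or more was found for 0 of them upward and 1 downward in null cells (median −0.13). That gene, the chromodomain protein Cbx7 (214 to 102), is named after its value was seen and lay close to the floor in null cells. The brightest were Cbx6, 1.09-fold higher (3413 to 3716), and Phc2, 1.04-fold lower (3041 to 2917). A second probe set was 1.18-fold higher for Cbx6 (2402 to 2826) and 1.29-fold lower for Phc2 (2568 to 1994). The log2 ratios of the 8 genes ran from −1.08 to 0.65. The E2 enzymes that hand ubiquitin to RING ligases had 0 of 4 members at least 2-fold different (median 0.07). Ube2d2a was 1.20-fold higher (6958 to 8359), and its other measured probe sets lay between −0.051 and 0.034 on the log2 scale. Ube2d3 was 1.71-fold lower at its brightest probe set (11522 to 6736), and its other 6 probe sets were lower too, by 1.11-fold to 1.38-fold. Over all 33 measured partners the median log2 ratio was −0.082, against 0.0060 over all measured genes.

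**Figure D4:**
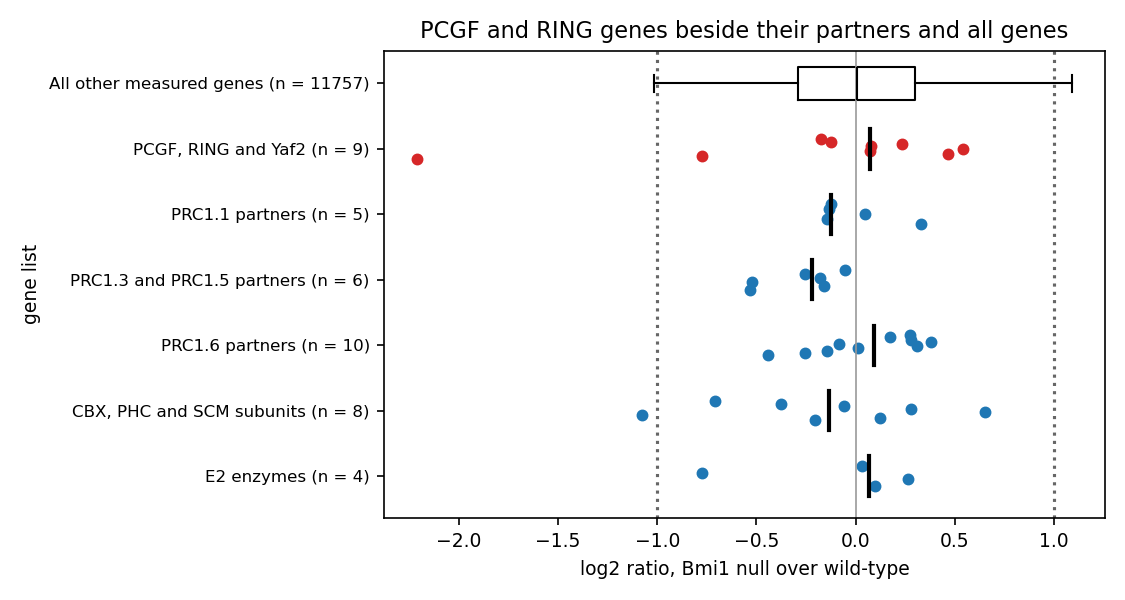
Log2 ratio, Bmi1 null over wild-type (x axis), of each measured gene (points) in the PCGF and RING group (red, 9 genes with Bmi1) and 5 partner lists (blue), with black bars for medians, dotted lines at 2-fold, and a box for all other measured genes (quartiles, with whiskers leaving out 5% of genes at each end). Apart from Bmi1 at −2.21 and Cbx7, just below −1, all points lie between the 2-fold lines.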

How the data were processed

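Total RNA from 1 wild-type and 1 Bmi1 null MEF line was converted to biotinylated cRNA and hybridised to Affymetrix mouse arrays. The authors derived the deposited intensity values with MAS5 (Microarray Suite 5.0 per the methods), and the values are linear signals whose mean without the outer 2% at each end was 500 on both arrays. The scaling setting was not given in the sources used here. A single factor per array would hide a change shared by most transcripts. The number of arrays limits the precision.

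Probe sets were named from the platform annotation, where 34958 of 45101 had 1 symbol, 932 several and 9211 none. Entrez identifiers found 34754 of these in RefSeq (GRCm38.p6), with 0 symbols changed. Signals below 0.2 times the trimmed mean were set to that floor, and a probe set below it on both arrays had no ratio. Where a gene had several probe sets, the 1 with the largest mean of its log2 signals stood for it. With 1 array per group no test was run. Probe set error was the SD of differences between the 2 brightest probe sets of a gene, divided by the square root of 2, in 3 signal classes: 0.33 below 500 (1916 genes), 0.27 from 500 to 2000 (1842) and 0.21 above (833). Named genes were all members, partner list members at least 2-fold different whose larger signal reached the trimmed mean, and 2 to 4 bright members of each partner list; Bcor, Auts2, L3mbtl2, Mga, Cbx7 and the cell type markers were added after their values were seen. Members and lists were chosen with earlier results of these data known. Motifs were chosen after the values were seen. Csnk2b and Ddx3y had no probe set annotated to them alone and are not analysed here. Promoter sequences are from RefSeq (GRCm38.p6). Python 3.11.15, numpy 2.4.6, pandas 2.3.3 and matplotlib 3.10.9 were used, and the calculation was tested on simulated data. In all, 8 alternative settings and a 1.5-fold threshold were tried.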

Additional observations from a re-analysis of the deposited data

How the results depend on the processing

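With the mean of probe sets in place of the brightest, the Bmi1 log2 ratio was −1.19, because its second probe set enters. At a threshold of 1.5-fold, 2 members and 2 member probe sets were lower, Pcgf1 joining Bmi1. Without a floor, 2 member probe sets were at least 2-fold lower, since Pcgf3 1428424_at (45.9 to 18.1) then had a ratio. Of 62 values for single members other than Bmi1, all stayed within 1 probe set SD of the value reported. Many of these could not move. The brightest probe sets of these members were above the floor, so removing it or lowering it to 0.1 times the trimmed mean left every value the same. Pcgf3 ran from −0.064 to 0.097 over the settings, Pcgf5 from 0.52 to 0.57, Pcgf2 from 0.35 to 0.49 and Pcgf1 from −0.78 to −0.50. Pcgf2 had no ratio at a floor of 0.4 times the trimmed mean, nor had Yaf2 without probe sets of the suffixes _s_at, _x_at and _a_at. No paired analysis was possible because each group has 1 array. Array signals near the floor limit Pcgf1 and Pcgf2.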

Other observations

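Both probe sets annotated jointly to Rybp and the pseudogene Rybp-ps read higher in null cells. Probe set 1428219_at read 1965 on the wild-type array and 3542 on the null array, 1.80-fold higher (log2 ratio 0.85), and 1421111_at read 165 and 220, 1.33-fold higher (log2 ratio 0.42). The brighter ratio lies above that of every measured PCGF, RING and Yaf2 probe set. Which of the 2 loci the signal comes from cannot be told apart with these probes.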
